A study of Mus musculus with 12 samples.

Results

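The 9 genes of the insulin-like growth factor (IGF) system described here are the ligands *Igf1* and *Igf2*, the receptor *Igf1r* and the binding proteins *Igfbp2*, *Igfbp3*, *Igfbp4*, *Igfbp5*, *Igfbp6* and *Igfbp7*. They were taken by gene symbol from the 27998 gene identifiers of the deposited single-cell count tables, and all 9 were present. The cells were live CD45-negative cells of the hind limb joints of wild-type C57BL/6 mice, from young adult males, captured in 12 libraries that each pooled 3 animals. Serum transfer-induced arthritis (STIA) had been started with arthritogenic K/BxN serum, and 3 libraries each were labelled rest (no treatment, day 0), peak (taken on days 7 to 9), resolving (taken on day 15) and resolved (taken on day 22). Nothing else in genotype or strain differed between the labels.

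IGF-1 and IGF-2 are secreted growth factors that signal through the type 1 IGF receptor, which activates the PI3K and Akt pathway and, in cartilage and bone, promotes matrix synthesis and growth. The binding proteins hold the ligands outside the cell and can limit or prolong their action, and proteases such as PAPP-A release the ligand by cutting some of them. IGFBP7 binds IGFs weakly and is a matrix-associated protein of vessels.

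After limits on genes and unique molecular identifiers (UMIs, the tags of single captured RNA molecules), 20060 of 21042 cells remained, between 1227 and 2747 per library. Marker genes named 12522 cells as fibroblast-like, and the other named types were tenocyte-like (1781 cells), vascular endothelial-like (1769), osteoblast-like (1370), proliferating (758), perivascular-like (654), chondrocyte-like (313), muscle-like (266), lymphatic endothelial-like (186), immune (112), Schwann-like (108) and erythroid (61). The suffix -like is left out from here on. UMIs were summed per library and type, and levels are given as CPM, the counts of a gene scaled by the total of that sum, which compare one gene between samples and not genes with each other. To be called, a gene needed a log2 difference over 0.5 together with an adjusted p under 0.05. In such sums, fewer cells with a transcript and less transcript per cell cannot be told apart. The p-values measure the spread between libraries, which edgeR estimates in part from all genes together.

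The libraries did not group by their labels. Cell barcodes carry a suffix from 1 to 12, 1 per library, and each of the 12 libraries was most like another library of its own run of 3 consecutive suffixes (1 to 3, 4 to 6, 7 to 9 and 10 to 12), while 0 were most like a library of their own label. Each run holds 3 different labels. No rest library has suffixes 10 to 12, no peak library 7 to 9, no resolving library 4 to 6 and no resolved library 1 to 3. No barcode was shared between libraries when the suffix was left off. The median was exactly 5358 UMIs per deposited cell in every library, while the totals over kept cells ranged from 7468914 to 16566202 UMIs, and the depth at which each library was sequenced is not known here. Stage labels and runs are therefore both given below, and the libraries are called by their labels without taking these as checked.

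*Igf1* (chromosome 10, 87858265 to 87937042 on GRCm38, plus strand) was highest in fibroblasts, and fibroblasts exceeded each of the 11 other types. Its level in fibroblasts was 754 ± 234 CPM (SD, n = 12 libraries), with a lowest value of 451, a median of 755 and a highest of 1257. Osteoblasts followed with 450 ± 151 CPM (n = 12) and tenocytes with 398 ± 110 CPM (n = 12), and these 2 types did not differ beyond their spread. Vascular endothelial cells held 52.5 ± 30.3 CPM and perivascular cells 33.4 ± 21.6 CPM, in ranges that lay wholly under that of the fibroblasts. The log2 difference between fibroblasts and vascular endothelial cells was 4.17 ± 0.24 (SE, adjusted p = 1.04e-29, edgeR quasi-likelihood test), and fibroblasts were higher in 12 of 12 libraries. Against osteoblasts it was 0.83 ± 0.20 (adjusted p = 0.000336 in edgeR) and against tenocytes 0.82 ± 0.20 (adjusted p = 0.000884 in edgeR), with fibroblasts higher in 11 of 12 libraries in each case. Without the upper limits on genes and UMIs per cell the tenocyte difference fell to 0.49 and was not called.

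Across all 9 genes and 11 types, 68 of 99 pairs were called, 60 higher in fibroblasts and 8 lower. Calls were common in general. Of all 10486 genes tested, those called were 53% against vascular endothelial cells (27.4% higher, 25.6% lower), 39.3% against lymphatic endothelial cells (27.1% higher, 12.2% lower), 39.7% against perivascular cells (23% higher, 16.7% lower), 28.1% against osteoblasts (16% higher, 12.1% lower). They were 47.2% against chondrocytes (27.8% higher, 19.4% lower), 17.5% against tenocytes (10.5% higher, 7.04% lower), 27.1% against proliferating cells (16.3% higher, 10.8% lower), 37.5% against muscle cells (27% higher, 10.5% lower). In the smallest types they were 30.9% against immune cells (19.7% higher, 11.2% lower), 14.8% against Schwann cells (9.72% higher, 5.11% lower), 15.4% against erythroid cells (9.67% higher, 5.69% lower). Erythroid cells gave sums in only 2 libraries and Schwann cells in 3. With another scaling (RLE size factors) the 5 calls against erythroid cells, that of *Igfbp6* against Schwann cells and that of *Igf1r* against lymphatic endothelial cells were lost. The scaling matters in the small types, since the median of all genes lay above 0 in the main result, by 1.09 on the log2 scale for erythroid cells, 0.48 for muscle and immune cells, 0.39 for Schwann cells, 0.33 for lymphatic endothelial cells, 0.16 for chondrocytes and 0.11 for perivascular cells. The share of calls that were higher in fibroblasts went from 69.0% to 42.8% with RLE against lymphatic endothelial cells, from 65.5% to 33.1% against Schwann cells, from 62.9% to 27.5% against erythroid cells, from 57.0% to 45.2% against osteoblasts, from 63.8% to 52.2% against immune cells and from 60.1% to 72.2% against proliferating cells.

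*Igf2* (chromosome 7, 142650766 to 142666816, minus strand), the mainly fetal ligand of the family, had its highest mean in osteoblasts, 81.2 ± 89.2 CPM, against 32.1 ± 23.5 CPM in fibroblasts (n = 12 each). The fibroblast level was lower by 1.17 ± 0.23 on the log2 scale than the osteoblast level (adjusted p = 1.37e-05 in edgeR), and osteoblasts were higher in 11 of 12 libraries. Tenocytes held 10.0 ± 12.1 CPM and were lower than fibroblasts in 12 of 12 libraries, a call that was lost at Leiden resolution 0.5 (0.56). It was also lost (0.50) when fibroblast clusters with 2 or more markers of another type were left out. The same setting lost the calls of higher *Igf2* in fibroblasts than in perivascular cells (0.55), chondrocytes (0.64) and immune cells (3.63). *Igf2* varied greatly between libraries of one label. In fibroblasts it was 50.6, 5.51 and 23.6 CPM in the libraries rest 1 to 3, 11.5, 43.6 and 14.0 CPM in peak 1 to 3, 70.7, 14.1 and 45.9 CPM in resolving 1 to 3, and 26.1, 70.7 and 8.64 CPM in resolved 1 to 3. Every label thus held both high and low libraries. GENCODE M21 has *Mir483* and *Gm49394* on the same strand within the gene, so that the count of *Igf2* is uncertain where the models overlap.

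*Igf1r* (chromosome 7, 67952827 to 68233668, plus strand), the receptor of both ligands, was spread evenly. Fibroblasts held 25.9 ± 3.13 CPM, from 22.4 to 33.0, the smallest relative spread of the 9 genes in these cells. The highest mean was in perivascular cells, 47.4 ± 23.6 CPM, where the fibroblast level was lower by 0.58 ± 0.17 on the log2 scale (adjusted p = 0.00378 in edgeR) and 11 of 12 libraries went that way. Without the library resolving 1 this difference was -0.48 and not called. Of the 11 types, 9 did not differ from fibroblasts by a call.

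Among the binding proteins, *Igfbp4* (chromosome 11, 99041244 to 99054392, plus strand) was higher in fibroblasts than in each of the 11 types, at 1593 ± 766 CPM. Proliferating cells held 1169 ± 228 CPM (n = 6), perivascular cells 868 ± 245 CPM and tenocytes 857 ± 287 CPM. The proliferating sums came only from suffixes 4 to 9, where fibroblasts held 2004 to 2701 CPM and were higher in 6 of 6 libraries. The difference from vascular endothelial cells was 3.06 ± 0.25 on the log2 scale (adjusted p = 4.56e-20 in edgeR, 12 of 12 libraries). The call against tenocytes was lost in DESeq2 (0.69, adjusted p = 0.0519) and without the upper limits on genes and UMIs per cell (0.49), and that against proliferating cells without the library block (0.60). From perivascular cells the difference was 0.86 ± 0.24 (adjusted p = 0.00158 in edgeR), but fibroblasts were higher in only 6 of 12 libraries, those with suffixes 4 to 9.

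*Igfbp6* (chromosome 15, 102144362 to 102149511, plus strand), which prefers IGF-2 over IGF-1, was lower in fibroblasts than in tenocytes in 12 of 12 libraries. Tenocytes held 3772 ± 1232 CPM and fibroblasts 2222 ± 1053 CPM (log2 difference of fibroblasts from tenocytes -1.003 ± 0.238, adjusted p = 0.00059 in edgeR). Without the library as a block this difference was -0.86 and not called. The other 10 types lay under the fibroblasts, from Schwann cells at 1609 ± 240 CPM (n = 3) to immune cells at 49.6 ± 21.5 CPM (n = 3). The difference from osteoblasts was 1.82 in the main result and 0.28, not called, at Leiden resolution 0.5.

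The bases before the start of *Igfbp4* and *Igfbp6* are shown because these genes are followed most closely below. They are the 250 bases upstream of the RefSeq start on GRCm38.p6, written in the direction of the gene, with TATAAA and CCAAT in capitals on either strand. The *Igfbp6* window ends at 102144185, short of the GENCODE M21 start of 102144362 given above, so the annotations place the start differently. What it holds applies to the RefSeq start only.
Igfbp4, chr11:99040994-99041243, plus strand: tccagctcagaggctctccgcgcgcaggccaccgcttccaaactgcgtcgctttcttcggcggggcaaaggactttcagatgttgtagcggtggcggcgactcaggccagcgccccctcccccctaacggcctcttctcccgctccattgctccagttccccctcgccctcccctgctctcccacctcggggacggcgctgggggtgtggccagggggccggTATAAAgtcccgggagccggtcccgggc
Igfbp6, chr15:102143936-102144185, plus strand: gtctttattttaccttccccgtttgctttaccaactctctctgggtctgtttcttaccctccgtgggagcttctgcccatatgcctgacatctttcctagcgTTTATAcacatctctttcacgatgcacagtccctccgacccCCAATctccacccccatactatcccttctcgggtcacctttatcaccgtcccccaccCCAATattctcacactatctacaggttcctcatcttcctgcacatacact
The *Igfbp4* window held 1 TATAAA, 0 CCAAT and 69.2% G and C. The *Igfbp6* window held 1 TATAAA on the opposite strand, 2 CCAAT and 49.6% G and C. Over 32851 windows of the same length in the table, 12.4% held TATAAA and 33.8% CCAAT on either strand, and GGGCGG, also searched, was in 32.7% of all windows and in neither of these.

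*Igfbp5* (chromosome 1, 72857932 to 72874884, minus strand), a matrix-bound binding protein, held 1138 ± 255 CPM in tenocytes and 1064 ± 319 CPM in fibroblasts, a log2 difference of -0.24 ± 0.25 that was not called, and was called higher in fibroblasts than in 9 types. Against osteoblasts it was 1.29 in the main result and 0.12, not called, at Leiden resolution 0.5. Lymphatic endothelial cells had the highest mean with the widest spread, 1361 ± 1415 CPM over 10 libraries, from 162 to 4738 CPM. Vascular endothelial cells held 78.5 ± 60.4 CPM.

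*Igfbp3* (chromosome 11, 7206086 to 7213923, minus strand), the main carrier of circulating IGF, marked the vascular endothelial cells. They held 113 ± 41.1 CPM, from 57.6 to 207, whereas fibroblasts held 13.2 ± 5.89 CPM, from 6.01 to 26.1. The ranges did not overlap, and the fibroblast level was lower by 2.81 ± 0.19 on the log2 scale (adjusted p = 1.25e-23 in edgeR, 12 of 12 libraries). A UMI of *Igfbp3* was found in 20.3% of vascular endothelial cells (median 3176 UMIs per cell) and in 5.18% of fibroblasts (median 5790 UMIs). With each cell thinned to 2000 UMIs the shares were 14.4% and 2.14%. Lymphatic endothelial cells held 13.9 ± 19.9 CPM (n = 10).

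*Igfbp7* (chromosome 5, 77349240 to 77408041, minus strand) was higher in vessel cells than in fibroblasts. Perivascular cells held 532 ± 210 CPM, vascular endothelial cells 425 ± 145 CPM, tenocytes 296 ± 140 CPM and fibroblasts 189 ± 43.8 CPM. The fibroblast level was lower by 1.23 ± 0.15, 0.83 ± 0.15 and 0.73 ± 0.15 on the log2 scale against these types in that order (adjusted p = 4.25e-11, 6.27e-07 and 7.35e-05 in edgeR), in 12 of 12 libraries each time. Lymphatic endothelial cells held less, 34.4 ± 39.0 CPM (n = 10).

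*Igfbp2* (chromosome 1, 72824503 to 72852474, plus strand), a neighbour of *Igfbp5* on the chromosome, was the least detected. Fibroblasts held 4.86 ± 6.02 CPM and a UMI was found in 0.799% of them. All 12 vascular endothelial sums were at 0, against 0.832 to 21.6 CPM in fibroblasts. When fibroblast clusters with 2 or more markers of another type were left out, the fibroblast sums held only 0 to 2.53 CPM, and the call against vascular endothelial cells was lost there and at Leiden resolution 0.5. Perivascular cells held 12.4 ± 22.9 CPM, with 7 of 12 libraries at 0 and resolved 1 at 78.3 CPM. Fibroblasts were called lower than perivascular cells by -1.58 ± 0.64 on the log2 scale (adjusted p = 0.0348 in edgeR), but this fell to -0.77 without the library resolved 1 and was no longer called. It was also lost without peak 2, peak 3 or resolved 2, with -1.33, -1.54 and -1.52.

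**Figure D1:**
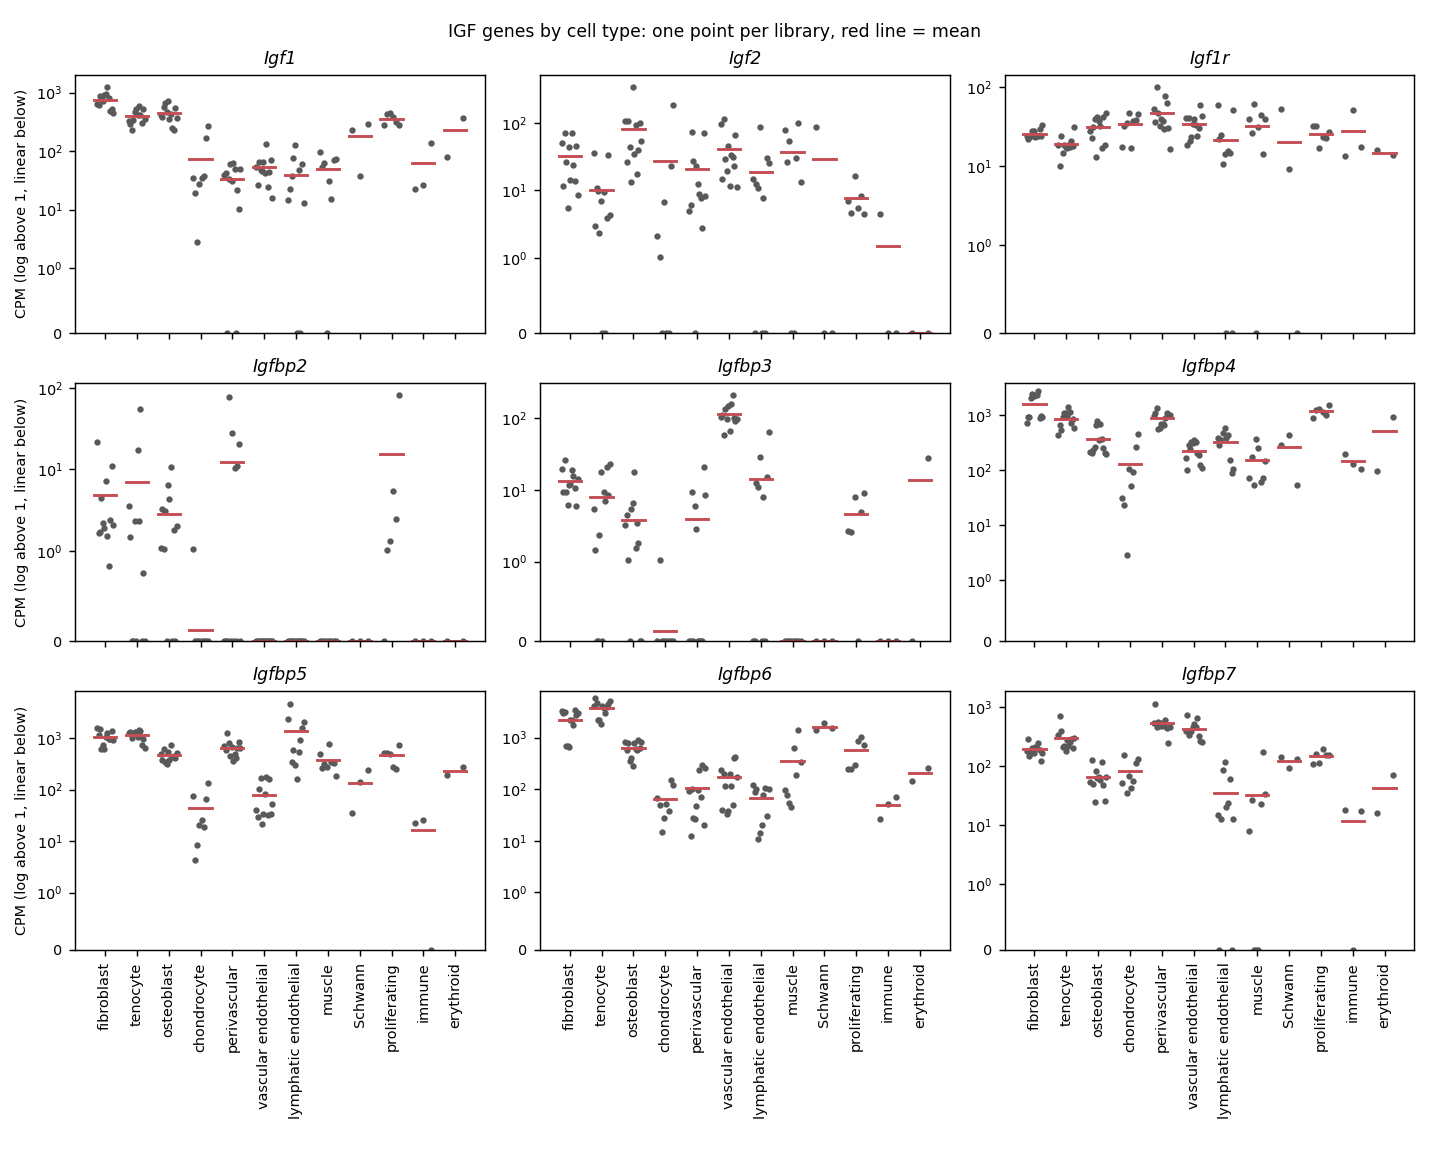
Level of each gene in CPM (y axis, logarithmic above 1 and linear below) in 12 cell types (x axis). Each point is a library with at least 10 cells of the type and the red line is the mean over libraries; *Igfbp3* stands at a mean of 113 CPM in vascular endothelial cells and 13.2 CPM in fibroblasts.

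The genes with the most similar pattern were found, as a description, by Pearson's r of the mean log2(CPM + 1) over 11 types. The types came from the same 12 libraries, but each mean took only those with a sum, from 3 (immune and Schwann cells) to 12. Proliferating sums came only from suffixes 4 to 9, so that type and run are mixed there. *Igf1* was most like *Pdgfra* (r = 0.973), *Cldn10* (0.961) and *Gcat* (0.947). *Igfbp6* was most like *Adh7* (0.956), *Chrd* (0.955) and *Dcn* (0.953), and *Igfbp4* was most like *S100a6* (0.909), *Twist2* (0.905) and *Ggt5* (0.896). *Pdgfra* and *Dcn* are among the markers used to name the fibroblasts, so their level there was part of the naming. *Igfbp5* was most like *Adamtsl4* (0.980), *Rbms3* (0.926) and *Lhfp* (0.921). *Igfbp2* was most like *Fst* (0.963), *C1qtnf7* (0.949) and *Twist2* (0.943). For *Igfbp3* they were *Ranbp9* (0.943), *Mllt4* (0.935) and *Ier5l* (0.933), and for *Igfbp7* *Plekhg2* (0.952), *Zbtb10* (0.945) and *Zfp87* (0.932). For *Igf2* they were *Wdr33* (0.897), *Smarca2* (0.878) and *Cdc42ep1* (0.865), and for *Igf1r* *Braf* (0.927), *Rabgef1* (0.918) and *Tuba1c* (0.913).

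Fibroblasts fell into 11 clusters made without the 9 genes, and the genes differed among them in different ways. These levels are a description, since clusters were made from the same cells. *Igf1* had its highest mean in the cluster led by *Cxcl5*, *Saa3* and *Sfrp1*, 1484 CPM over 6 libraries, followed by that led by *C1qtnf3*, *Spon2* and *Cthrc1* (1123 CPM over 8) and that led by *Inmt*, *C4b* and *Dkk2* (1034 CPM over 12). *Igfbp4* was also highest in the *Cxcl5* cluster, 3893 CPM, while *Igfbp6* was 660 CPM there. The cluster led by *Nppc*, *Col8a1* and *Mfap4*, which like the *C1qtnf3* cluster passed 3 tenocyte markers, held the highest means of *Igf2* (166 CPM), *Igfbp2* (62.1 CPM) and *Igfbp3* (45.8 CPM). *Igfbp5* was highest in the sublining cluster, 2424 CPM, and *Igf1r* varied least, from 16.7 to 33.5 CPM.

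**Figure D2:**
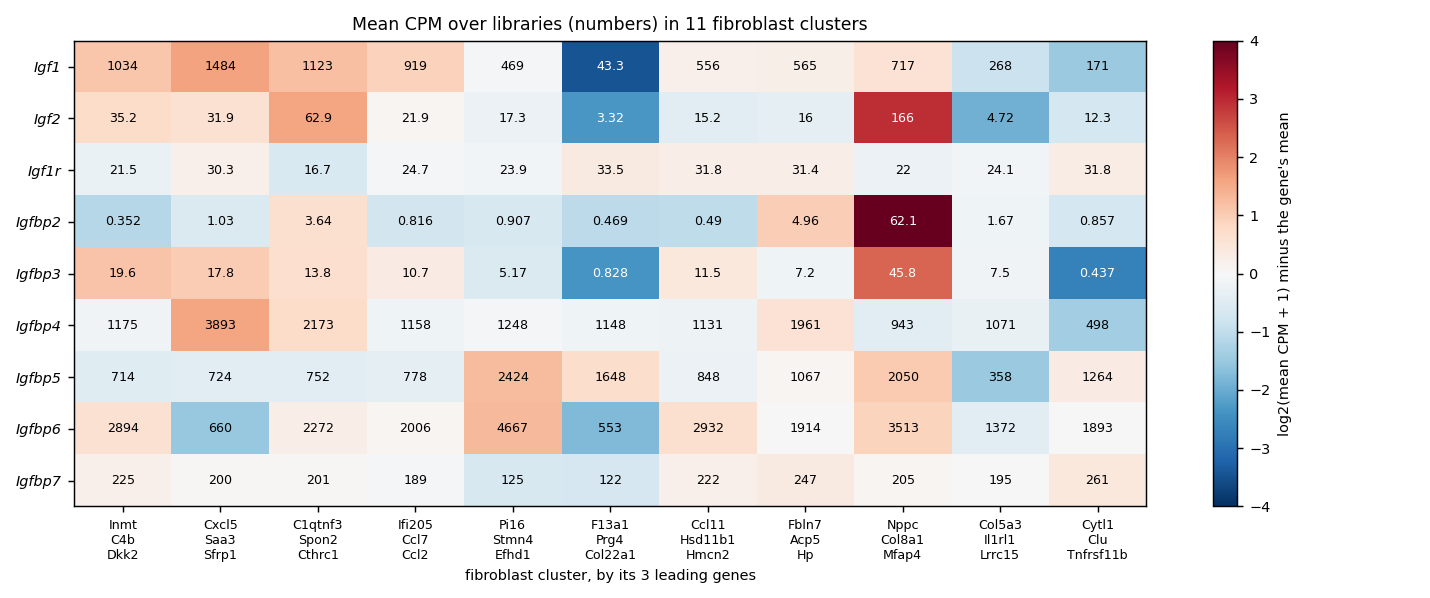
Mean CPM over libraries (numbers) of the 9 genes (rows) in 11 fibroblast clusters (columns, by their 3 leading genes). The colour is log2(mean CPM + 1) minus the gene's mean over clusters; *Igf1* is 43.3 CPM in the lining cluster led by *F13a1*, *Prg4* and *Col22a1* and 1484 CPM in the *Cxcl5* cluster.

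Lining fibroblasts, which face the joint cavity and make lubricin (*Prg4*), were compared with sublining fibroblasts, marked by *Pi16* and *Cd34*, in the same libraries. Each subset was 1 cluster, of 1010 lining and 1341 sublining cells. The other fibroblast clusters were left out, among them those led by *Inmt* and by *Ccl11*, which passed *Cd34* as well. The *Cxcl5* cluster, also left out, had low *Igfbp6* too but the highest *Igf1*. *Igf1* and *Igfbp6* were far lower in the lining, and these were the 2 called of 6 genes tested (26.7% of 5660 genes were called). *Igf1* held 43.3 ± 20.1 CPM in the lining, with a lowest value of 20.5 and a highest of 84.7, and 469 ± 193 CPM in the sublining, with a lowest value of 191 and a highest of 779. The groups did not overlap, and the lining was lower in 12 of 12 libraries, by -3.50 ± 0.18 on the log2 scale (adjusted p = 6.11e-14 in edgeR). *Igfbp6* held 553 ± 123 CPM in the lining, from 387 to 727, and 4667 ± 1072 CPM in the sublining, from 2829 to 5837. Here too the groups did not overlap, and the difference was -3.09 ± 0.08 (adjusted p = 9.41e-19 in edgeR, 12 of 12 libraries).

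*Igfbp5* was 1648 CPM in the lining and 2424 CPM in the sublining on average, a log2 difference of -0.55 ± 0.23 that missed the threshold (adjusted p = 0.0588 in edgeR, lower in 9 of 12 libraries). It passed without the library block (-0.57) and without rest 2 (-0.69), peak 2 (-0.67) or resolving 1 (-0.67). *Igfbp4* differed by -0.11 ± 0.10, *Igfbp7* by -0.34 ± 0.19 and *Igf1r* by 0.38 ± 0.17, none of them called. *Igf2*, *Igfbp2* and *Igfbp3* did not pass the filter on low counts. Fixed lists of related genes stand beside the 26.7% of all 5660 genes that were called, 12.5% higher and 14.2% lower in the lining. Lists of 2 to 6 tested genes are too short to be compared with these shares. Of 2 tested proteases and inhibitors 1 was called, *Htra1*, a serine protease that can cut binding proteins, higher in the lining by 1.68 ± 0.12. Of 4 tested receptors and adaptors 1 was called, *Grb10*, an adaptor that dampens receptor signalling, at -1.11 ± 0.15. Both tested imprinted growth genes were lower in the lining, *Meg3* by -4.10 ± 0.28 and *Ndn* by -1.81 ± 0.10. Of 6 Akt and FoxO genes 2 were called, *Foxo1* higher by 1.78 ± 0.15 and *Pik3r1* lower at -1.45 ± 0.15, and of 3 growth hormone axis genes *Stat5b* was higher by 0.87 ± 0.22. Of 20 dissociation and immediate early genes 8 were lower and 1 higher in the lining, led by *Jun* (-1.17 ± 0.10), *Ier3* (-0.71 ± 0.09) and *Dusp1* (-0.59 ± 0.10). Their part in the *Igf1* and *Igfbp6* differences was not tested.

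**Figure D3:**
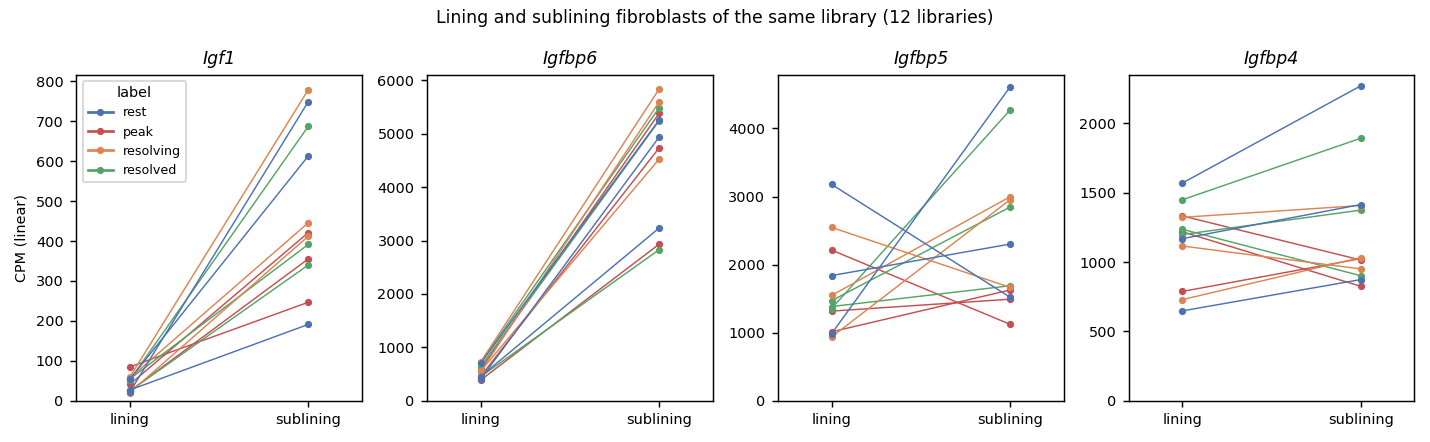
CPM (linear y axis from 0) of 4 genes in lining and sublining fibroblasts, with a line joining the sums of the same library, coloured by its label. All 12 lines rise for *Igf1* and *Igfbp6*, whereas those of *Igfbp5* and *Igfbp4* go both ways.

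No gene was called between the labelled stages and rest in fibroblasts. Of 11816 genes tested, 0 (0%) were called at peak, resolving or resolved, and DESeq2 called 0, 1 and 0 genes. An unadjusted p under 0.05 in edgeR was held by 91, 84 and 63 genes (0.77%, 0.71% and 0.53%). That is far under the share such a threshold gives without any difference, so the test was strict. Each label spans several runs, so differences between runs were part of its spread. The 3 contrasts share the rest libraries. *Igf1* in fibroblasts was 640, 712 and 798 CPM in rest 1 to 3, 606, 912 and 480 CPM in peak 1 to 3, 890, 967 and 527 CPM in resolving 1 to 3, and 804, 1257 and 451 CPM in resolved 1 to 3. The labels overlapped throughout, and the peak libraries differed from rest by -0.08 ± 0.36 on the log2 scale. *Igfbp6* was 3221, 689 and 1725 CPM in rest 1 to 3 and 3004, 650 and 3373 CPM in peak 1 to 3, a difference of 0.39 ± 0.67. *Igfbp4* was 707, 2380 and 2701 CPM in rest and 922, 2158 and 862 CPM in peak, with -0.55 ± 0.58. The libraries of rest and those of peak lay far apart for both genes, whereas *Igfbp6* ranged only from 2233 to 3144 CPM in resolving. That label has suffixes 3, 7 and 11, and so no library among suffixes 4 to 6, where *Igfbp6* was lowest in fibroblasts. Over the 9 genes and 3 contrasts the differences lay between -1.91 ± 0.99 (*Igfbp2* at peak) and 0.73 ± 0.86 (*Igf2* at resolving), and the first turned to 0.33 without rest 1, the library with the highest *Igfbp2* in fibroblasts (21.6 CPM). With the run of suffixes as a block the SE became smaller, 0.15 for the *Igfbp6* difference of 0.09 and 0.16 for the *Igfbp4* difference of 0.01 at peak, and again 0 genes were called.

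The runs of suffixes differed in 4 of the 9 genes, against 48.2% of all 11816 genes, a share like that of the genes in general. *Igfbp6* in fibroblasts was 3221, 3004 and 3144 CPM in the libraries with suffixes 1 to 3 (rest 1, peak 1, resolving 1), 678, 689 and 650 CPM with 4 to 6 (resolved 1, rest 2, peak 2), 2233, 2158 and 1725 CPM with 7 to 9 (resolving 2, resolved 2, rest 3), and 3373, 2750 and 3044 CPM with 10 to 12 (peak 3, resolving 3, resolved 3). Suffixes 4 to 6 were far under all others and did not overlap with them. The largest difference between runs was 2.19 on the log2 scale (adjusted p = 1.25e-07 in edgeR, F test over 4 runs).

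*Igfbp4* went the other way. It was 707, 922 and 899 CPM with suffixes 1 to 3 and 862, 967 and 912 CPM with 10 to 12, but 2004, 2380 and 2158 CPM with 4 to 6 and 2268, 2335 and 2701 CPM with 7 to 9. The first and last runs did not overlap with the middle runs (largest difference 1.57, adjusted p = 6.1e-07 in edgeR). *Igfbp5* was lowest with suffixes 4 to 6, 609 to 733 CPM, against 932 to 1557 CPM elsewhere (0.995, adjusted p = 0.000811 in edgeR). *Igf1* was lowest with suffixes 10 to 12, 451 to 527 CPM, against 606 to 1257 CPM elsewhere (0.997, adjusted p = 0.00104 in edgeR). *Igf1r*, *Igf2*, *Igfbp2*, *Igfbp3* and *Igfbp7* were not called, and *Igfbp7* had its highest fibroblast value, 291 CPM, in peak 1.

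**Figure D4:**
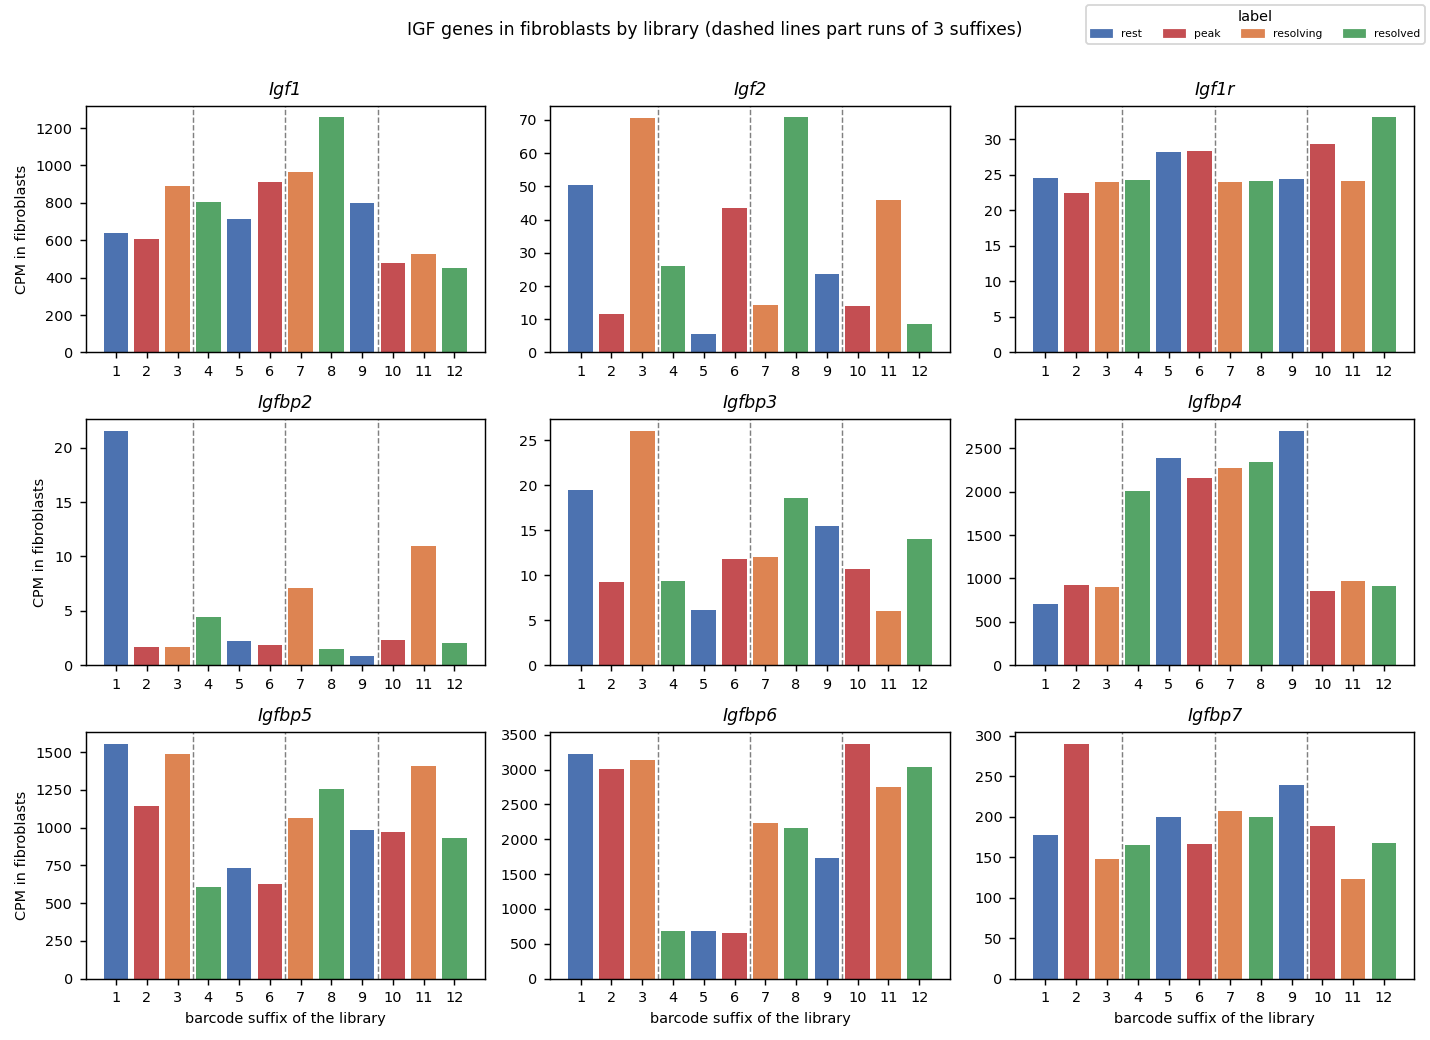
Bars show the CPM of the 9 genes in fibroblasts (y axis from 0) by library in the order of the barcode suffix (x axis), coloured by label, with dashed lines between runs of 3 suffixes. *Igfbp6* is lowest at suffixes 4 to 6 (650 to 689 CPM) and *Igfbp4* is highest at suffixes 4 to 9, whatever the label.

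The make-up of the fibroblasts moved with the runs as well. The *Cxcl5* cluster, with high *Igfbp4* and low *Igfbp6*, made up 38.9% to 41.8% of fibroblasts with suffixes 4 to 6, 7.04% to 10.4% with 7 to 9 and at most 0.291% elsewhere. The *Pi16* sublining cluster made up 17.9% to 25.3% with 1 to 3 and 16.6% to 19.1% with 10 to 12, but 2.48% to 6.69% with 4 to 9. Differences between runs were also found within the lining and within the sublining cluster. In lining fibroblasts alone *Igfbp4*, *Igfbp5*, *Igfbp6*, *Igfbp7* and *Igf1* were called between runs (19.8% of genes called). In sublining fibroblasts alone these were *Igfbp4*, *Igfbp5*, *Igfbp6* and *Igf1* (6.98%), and both tests were added after the data were seen. The largest *Igfbp6* difference between runs was 0.66 in the lining and 0.96 in the sublining, against 2.19 in all fibroblasts. That of *Igfbp4* was 0.93 and 1.02 against 1.57, of *Igfbp5* 1.09 and 1.17 against 0.995, and of *Igf1* 1.14 and 1.23 against 0.997. For *Igfbp7* it was 1.61 in the lining, but 0.46 in the sublining and 0.37 in all fibroblasts, neither of which was called. In sublining fibroblasts *Igfbp6* was 2829 to 3234 CPM with suffixes 4 to 6 and 4527 to 5837 CPM elsewhere, without overlap. The summed level of the 7 fibroblast markers was 53319 to 70450 CPM with suffixes 1 to 3, 18814 to 21993 with 4 to 6, 20676 to 25983 with 7 to 9 and 44920 to 57198 with 10 to 12, and that of the 20 dissociation genes was 24884 to 33797, 20044 to 21100, 19455 to 22411 and 25186 to 32619 in that order, with 0 of the markers of either list at 0. The part of these in the differences was not tested, and runs cannot be told apart from whatever else the libraries of a run shared.

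Other genes of the pathway moved between the runs as well. Beside the 48.2% of all genes that were called, 4 of 5 tested proteases and inhibitors were called, 5 of 7 receptors and adaptors, 4 of 5 growth hormone axis genes, 8 of 9 imprinted growth genes, 4 of 8 Akt and FoxO genes and 17 of 20 dissociation genes. *Pappa*, the gene of PAPP-A, was 14.2 to 17.7 CPM with suffixes 4 to 6 and 1.88 to 6.99 CPM elsewhere. *Htra1* was 277 to 316 CPM with 4 to 6 and 564 to 863 CPM elsewhere. *Ghr*, the growth hormone receptor, was 48.6 to 54.5 CPM with 4 to 6 and 66.5 to 101 CPM elsewhere. *H19*, an imprinted neighbour of *Igf2*, was 212 to 401 CPM with 4 to 9 and 6.38 to 40.1 CPM elsewhere. *Grb10* was 84.1 to 113 CPM with 4 to 9 and 36.0 to 42.8 CPM elsewhere, and *Igf2r*, the receptor that clears IGF-2, was 32.7 to 49.0 CPM with 4 to 9 and 14.1 to 24.6 CPM elsewhere. None of these ranges overlapped. The genes were picked by the lowest p of their lists and the runs were split by their values, so this is a description. The share of all genes without such overlap is not given here. The median difference between the highest and the lowest run was 1.53 for the imprinted genes and 1.38 for the proteases, beside 0.64 over all genes.

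In the 5 other types with enough libraries, 13 of 28 pairs of gene and type were called. *Igfbp4* was called in all 5, *Igfbp6* in 4, *Igfbp5* and *Igfbp7* in 2. The share of all genes called was 24.6% in vascular endothelial cells, 9.08% in lymphatic endothelial cells, 25.7% in perivascular cells, 2.29% in osteoblasts and 8.48% in tenocytes. *Igfbp6* in tenocytes was 1803 to 2226 CPM with suffixes 4 to 6 and 3015 to 5799 CPM elsewhere, and in osteoblasts 281 to 399 CPM against 563 to 885 CPM, so that suffixes 4 to 6 were lowest in both types, without overlap. The run pattern still differed from that of fibroblasts in tenocytes (adjusted p = 5.31e-05 in edgeR, 10.6% of genes) and in osteoblasts (adjusted p = 0.000212 in edgeR, 7.3% of genes), by an interaction test of run and type added after the data were seen. *Igfbp4* in perivascular cells went against the fibroblasts. It was 948 to 1343 CPM with suffixes 1 to 3 and 973 to 1066 CPM with 10 to 12, but 545 to 670 CPM with 4 to 6 and 662 to 869 CPM with 7 to 9. The pattern differed from that of fibroblasts (adjusted p = 4.17e-40 in edgeR, interaction of run and type, added after the data were seen, where 7.33% of genes differed). This p came from 12 libraries and leans on the spread estimated over all genes. Its size is therefore no measure of certainty from the libraries of this gene alone. *Igfbp5* in lymphatic endothelial cells was 2348 and 4738 CPM with the 2 libraries of suffixes 1 to 3 that gave sums and 162 to 2065 CPM elsewhere, and its pattern differed from fibroblasts too (adjusted p = 8.23e-12 in edgeR, 1.43% of genes).

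**Figure D5:**
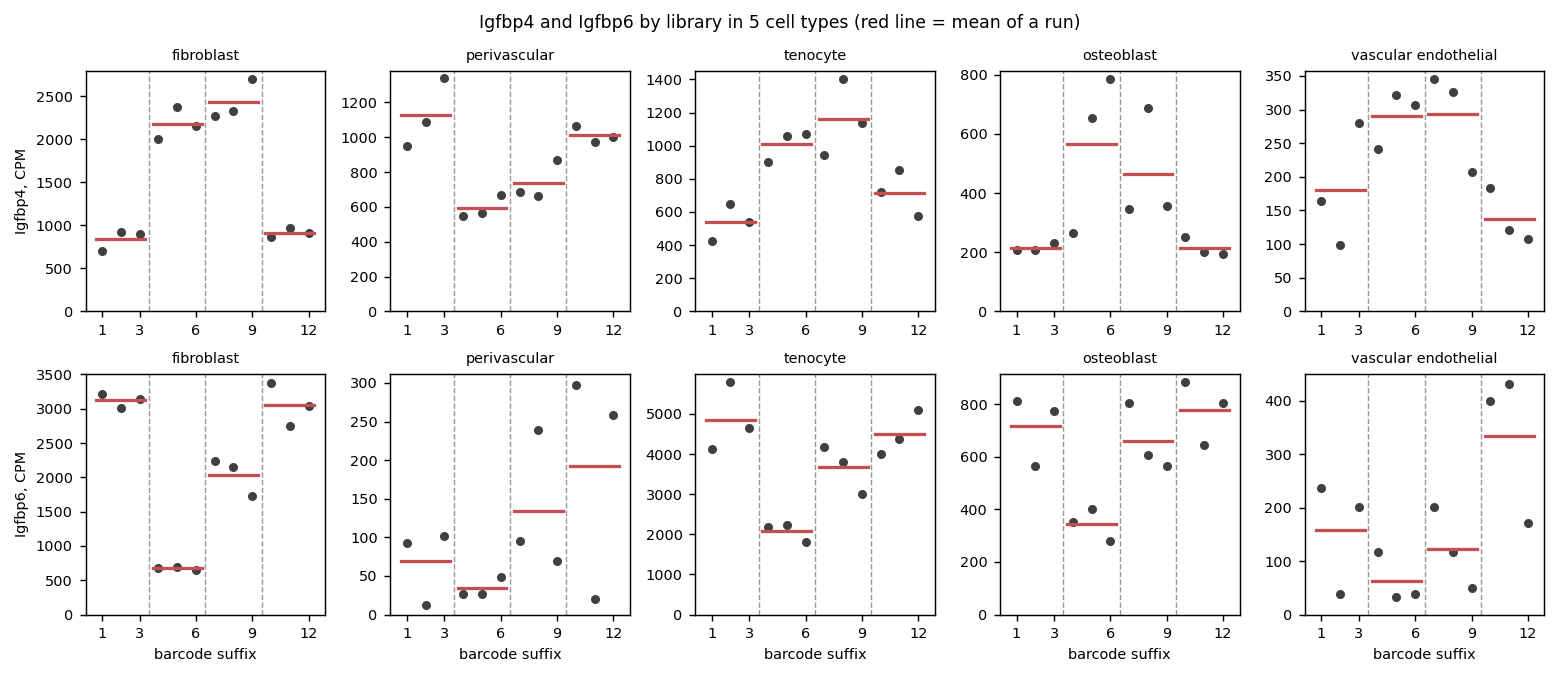
CPM (y axis from 0) of *Igfbp4* (top) and *Igfbp6* (bottom) by library in the order of the barcode suffix (x axis) in 5 cell types. Points are libraries, red lines are means of a run and dashed lines part the runs; perivascular *Igfbp4* is lowest at suffixes 4 to 9, where fibroblast *Igfbp4* is highest.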

How the data were processed

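Single-cell libraries were made by the authors with the 10x Genomics 3′ kit, aligned with Cell Ranger to mm10 and deposited as UMI counts, which are whole numbers. How their medians per cell came to be equal in every library is not given in the sources used here. Stage and replicate came from the labels. Cells with over 500 and under 5000 genes, over 500 UMIs and fewer UMIs than an upper limit for their library were kept. Clusters were made in scanpy 1.11.5 (2000 variable genes, 30 components, 20 neighbours, Leiden resolution 1, leidenalg 0.10.2), without the 9 genes and the IGF lists. How many markers a name requires was decided with the clusters in view. Scrublet's own threshold called 0.279% of cells, so doublets were not removed in the main result, and the 6% of cells with the highest scores were removed in an alternative.

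Sums per library and type of at least 10 cells went into edgeR 4.0.16 under R 4.3.3. TMM scaled them, filterByExpr removed low genes, and glmQLFTest gave two-sided p-values that were adjusted by Benjamini-Hochberg over every gene in the fit. Types and lining against sublining had the library as a block, stages and runs had none. SE is the log2 difference divided by the root of F. Alternatives were other limits on cells, doublet removal, Leiden resolution 0.5, cells thinned to 2000 UMIs, RLE size factors, no filter on low counts, DESeq2 1.42.0, other blocks and leaving out each library. The genes, markers and lists were chosen with earlier results of these data known. Genes were named by rule: the 9 genes, up to 3 genes of a list with the lowest p, and the 3 genes most alike across types. Of the 27998 identifiers, 27645 are in GENCODE M21, which gave positions, and promoter sequences are from RefSeq. The models were tested on simulated counts. Shares of cells cover counting error only.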

Additional observations from a re-analysis of the deposited data

Results flagged for a closer look

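Of 33 groups of 4 to 10 libraries tested for a library that stands apart, 10 had one. The limit used flags about 1 in 20 groups of normally distributed values by chance. That rate does not hold for counts near 0, where a lone UMI is always flagged, so 10 of 33 cannot be compared with it. Most of the 10 rest on few UMIs. In lymphatic endothelial cells *Igf2* was 85.65 CPM in peak 2 (6 UMIs, next value 29.9), *Igfbp3* was 64.14 CPM in resolved 3 (5 UMIs, next value 28.5) and *Igfbp5* was 4738 CPM in resolving 1 (213 UMIs in 14 cells, next value 2348). In chondrocytes *Igf2* was 183.4 CPM in resolved 2 (24 UMIs, next value 22.9), *Igfbp2* was 1.04 CPM in rest 1 and *Igfbp3* was 1.05 CPM in peak 1, the last pair being 1 UMI each with the other libraries at 0. In proliferating cells *Igf2* was 16.19 CPM in peak 2 (next value 8.15) and *Igfbp2* was 81.56 CPM in rest 3 (18 UMIs in 22 cells, next value 5.45). In muscle cells resolving 3 held 1408 CPM of *Igfbp6* (next value 626) and 170.7 CPM of *Igfbp7* (next value 32.8).

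The pattern over runs of suffixes differed between fibroblasts and another type in 16 pairs by an interaction test in edgeR, added after the data were seen, with p adjusted over all genes. These p-values lean on a spread estimated over all genes, so their size is no measure of certainty from a single gene. Against vascular endothelial cells this held for *Igf2* (adjusted p = 0.035, 11.3% of all genes) and against lymphatic endothelial cells for *Igfbp5* (8.23e-12). Against perivascular cells it held for *Igfbp4* (4.17e-40), *Igfbp5* (4.02e-07), *Igfbp2* (4.1e-06) and *Igfbp6* (7.46e-06). Against osteoblasts it held for *Igfbp6* (0.000212), *Igf1* (0.00261) and *Igf2* (0.0438), where 7.3% of all genes differed. Against tenocytes, where 10.6% differed, it held for *Igfbp5* (2.39e-06), *Igfbp6* (5.31e-05), *Igfbp7* (5.72e-05), *Igfbp3* (0.000406), *Igfbp2* (0.000508), *Igfbp4* (0.000857) and *Igf1* (0.00456).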

How the results depend on the processing

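The main result called 68 pairs of gene and type. DESeq2 called 57 pairs, and 59 were called without the library block, 61 with RLE and 63 at Leiden resolution 0.5. When a library was left out, 63 to 70 were called. These counts run over all pairs tested and not over the 68, so that newly called pairs can stand in for lost ones. Leiden resolution 0.5 lost *Igfbp3*, *Igfbp5* and *Igfbp6* against osteoblasts, *Igf2* against perivascular cells, chondrocytes, tenocytes and immune cells, *Igfbp2* against vascular endothelial cells, *Igfbp7* against proliferating cells and *Igfbp5* against erythroid cells. The 2 genes called between lining and sublining became 4 without the filter on low counts and 2 to 3 when a library was left out. Between stages 0 genes of the 9 were called under every setting run and when any library was left out. The 4 genes called between runs in fibroblasts were 4 to 5 when a library was left out, and the 13 pairs in other types were 23 without the filter, an alternative chosen after seeing the data, and 11 to 15 when a library was left out. Same-numbered libraries were not taken as pairs, since their deviations correlated with those of the rest library from -0.51 to 0.61. The replicate block called 0 genes between stages and turned *Igfbp2* at resolving to 0.4017.

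Some differences changed sign. At Leiden resolution 0.5 *Igfbp3* against osteoblasts, called at 2.06 in the main result, was -0.2017 and not called, *Igfbp4* between lining and sublining 0.0604 and *Igf2* at peak 0.0275. With the run as a block, *Igf1r* was -0.0263, *Igf2* 0.4002, *Igf1* 0.2401, *Igfbp3* 0.0491 and *Igfbp4* 0.0085 at peak, *Igfbp2* 0.1465 at resolving and *Igf1r* -0.0422 at resolved. With fibroblast clusters that held markers of other types left out, an alternative chosen after seeing the data, *Igf2* was 0.4200 and *Igf1* 0.0361 at peak. *Igfbp2* at resolving was 0.0083 in thinned cells and 0.0153 without upper limits, and *Igfbp3* at resolving was -0.1323 with at most 10% mitochondrial UMIs. When a library was left out, at peak *Igfbp2* from -2.4414 to 0.3275, *Igfbp5* from -0.3959 to 0.0806, *Igfbp7* from -0.1752 to 0.2346, *Igf1r* from -0.0132 to 0.2012, *Igf2* from -0.9625 to 0.6920 and *Igf1* from -0.3808 to 0.0910 changed sign. The same held at resolving *Igfbp2* from -0.7582 to 2.0348, *Igf1r* from -0.1897 to 0.0030, *Igf1* from -0.0605 to 0.3550 and *Igfbp3* from -0.5373 to 0.4617. It also held at resolved *Igfbp2* from -2.1257 to 0.6901, *Igfbp5* from -0.4233 to 0.0986, *Igf1r* from -0.1014 to 0.2223, *Igf2* from -0.5135 to 1.2778, *Igf1* from -0.1498 to 0.5106, *Igfbp3* from -0.2368 to 0.3903, *Igfbp4* from -0.5734 to 0.1415 and *Igfbp6* from -0.3872 to 0.7115. The cause was not tested. With 3 libraries per label, small stage differences were not detectable. Larger ones could be missed too, since the SE at peak was 0.67 for *Igfbp6* and 0.58 for *Igfbp4*. Some differences larger than their SE were not called either, such as *Igfbp2* at peak (-1.91 ± 0.99).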
